A study of Mus musculus with 6 samples.

Results

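The genes described here are the classical ligands and receptors of axon guidance: the ephrins and Eph receptors, the semaphorins with their plexin and neuropilin receptors, the Slits and Robos, and the netrins with Dcc and the Unc5 receptors. They were read in hippocampal RNA of p300+/- and Wild-type mice. A probe set, the group of short probes that reports 1 transcript on the array, was taken as a member where its annotation held exactly 1 gene symbol and that symbol belonged to one of these families by its name. This gave 162 probe sets of 73 genes, out of 45037 probe sets tested, of which 34945 had a single symbol and stood for 18193 genes. Of the 162, 5 probe sets of 3 genes matched by letters only: Plxna4os1, an antisense transcript, Unc50 and Unc5cl are not guidance ligands or receptors. The other 157 probe sets stood for 70 genes in 9 families. No filter on dim signal was applied, so all 162 were tested. Ephb2 had no probe set with a single symbol and was not analysed here.

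Guidance molecules steer growing axons by attraction and repulsion. Ephrins are bound to the membrane and signal through Eph receptor tyrosine kinases, and B-type ephrins also signal back into the cell that carries them. Secreted class 3 semaphorins act through neuropilins joined to plexins, most other semaphorins bind plexins directly, Slits repel through Robos, and netrins attract through Dcc and repel through Unc5 receptors. In the adult hippocampus many of these molecules remain at synapses and dendritic spines, and several shape the mossy fibre projection of the dentate gyrus.

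The study compared mice heterozygous for a deficiency of p300 with Wild-type littermates, all females 3 months old on a C57BL/6 background. Each of the 6 Affymetrix Mouse Genome 430 2.0 arrays held pooled hippocampal RNA of 4 animals, in 3 pools per genotype, so 12 animals stood behind each genotype and the spread between arrays is a spread between pools. The p300+/- animals carry the deficiency on 1 of the copies of Ep300, and the labels do not name the kind of allele. Ep300 encodes p300, which acetylates histones and other proteins and serves as a transcriptional coactivator. All values below are log2 intensities relative to the median of the same probe set over the 6 arrays. They hold no absolute level beyond a coarse class read from the rounding of the values. Within a class no gene's level can be set against another's.

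Ep300 itself had values of -0.26, -0.22 and -0.50 in p300+/- pools 1, 2 and 3, against 0.22, 0.38 and 0.40 in Wild-type pools 1, 2 and 3. All 3 p300+/- pools lay below all 3 Wild-type pools. The log2 fold change, p300+/- minus Wild-type here and throughout, was -0.66 ± 0.13 (SE, n = 3 each), a fold of 0.634 with a 95% interval of 0.516 to 0.778, and limma gave an unadjusted p of 0.00103 and an adjusted p of 0.9999. Whether the single Ep300 probe set, 1434765_at, lies inside the altered stretch of the gene is not known here.

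Array medians over all probe sets lay between -0.014 and 0.023. The 12 hippocampal neuron marker genes (among them Wfs1, Fibcd1, C1ql2 and Prox1) had 27 probe sets, of which 21 fell in the highest of the coarse level classes that could be read from the rounding of the values, 8 to 16 on the log2 scale. Their array medians were 0.081, -0.033 and -0.45 in p300+/- pools and 0.028, -0.32 and 0.18 in Wild-type pools. The medians of p300+/- pool 3 and Wild-type pool 2 were therefore low, with 24 and 21 of the 27 probe sets below 0. Not every marker gene was low. Neurod6 had 0.12 in p300+/- pool 3 and 0.20 in Wild-type pool 2, and Bok had 0.21 and 0.084. Zbtb20 held the most probe sets of these genes, all of them below 0 in both arrays. It thus weighs heavily on the medians, which were not taken without it. Markers of the choroid plexus, a secretory tissue of the ventricles next to the hippocampus, were measured for 14 of 16 genes by 23 probe sets. They had medians of 0.043, -0.025 and 0.12 in p300+/- pools and -0.15, -2.28 and 0.20 in Wild-type pools, and all 23 were below 0 in Wild-type pool 2. Because these 2 arrays stood apart, the values of the leading probe sets are also given without them.

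No guidance ligand or receptor changed with genotype at the threshold used, a Benjamini-Hochberg adjusted p under 0.05 over all probe sets tested. limma called 0 of the 162 probe sets, and over the whole table it called 0 of 45037 (0%), with every adjusted p at 0.9999. At an unadjusted p under 0.05 limma had 1 of the 162 higher in p300+/- pools, where 0.77% of all probe sets were, and 3 of them lower, where 0.451% were. In whole-tissue RNA, fewer cells of a type and less RNA per cell cannot be told apart.

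The log2 fold changes of the 162 probe sets ran from -0.48 to 0.44, with 75 above 0 and 87 below. Their median was -0.010, beside 0.0057 over all probe sets. For 149 of the 162 (92.0%) the 95% interval of the log2 fold change lay within 1 on either side of 0, a share that was 95.5% over all probe sets, so a change of more than 2-fold lay outside the interval of most members. The median distance from the estimate to either end of the interval was 0.39.

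**Figure D1:**
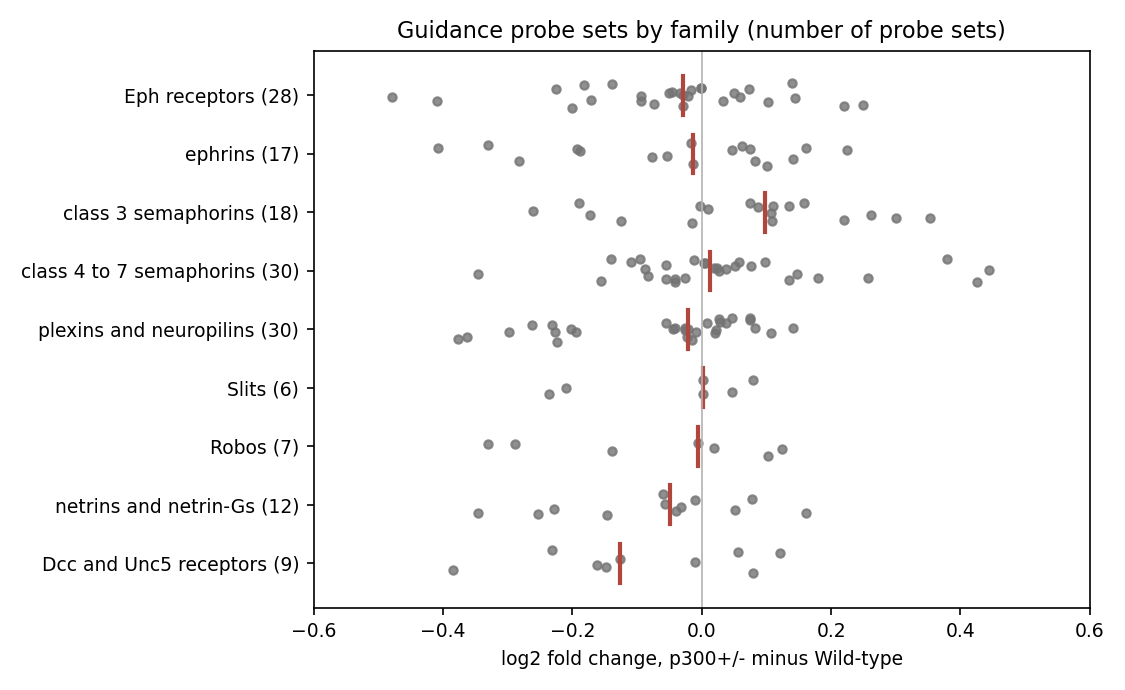
Log2 fold change (p300+/- minus Wild-type, horizontal axis) of each guidance probe set, in rows by family with the number of probe sets in brackets; a grey point is 1 probe set and a red bar the family median. All points lie within 0.5 of 0, and the family medians run from -0.13 for Dcc and the Unc5 receptors to 0.097 for the class 3 semaphorins.

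The 3 p300+/- pools lay wholly above the 3 Wild-type pools for 3 of the 162 probe sets (3.19% of all probe sets did) and wholly below for 5 (2.2% did). These were Sema3d 1453148_at, Epha1 1432400_at and Efnb1 1418286_a_at above, and Efnb1 1418285_at, Efnb2 1419639_at, Plxna2 1453286_at, Ntng1 1449286_at and Dcc 1440487_at below. Efnb1 stands on both sides, through different probe sets.

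Among the ligands, Efnb1, Sema3d and Efnb2 gave the smallest p-values. Efnb1 encodes ephrin-B1, a transmembrane ligand of EphB receptors. Its probe set 1418285_at had values of -0.037, -0.23 and -0.29 in p300+/- pools, against 0.30, 0.037 and 0.33 in Wild-type pools. The genotypes did not overlap, and the closest pair was p300+/- pool 1 and Wild-type pool 2. The means were -0.19 ± 0.13 in p300+/- and 0.22 ± 0.16 in Wild-type pools (SD, n = 3 each), a log2 fold change of -0.41 ± 0.13 with an unadjusted p of 0.0177 and an adjusted p of 0.9999 by limma. The other Efnb1 probe sets went the other way. 1418286_a_at had 0.024, 0.19 and 0.070 in p300+/- pools and -0.093, -0.024 and -0.087 in Wild-type pools, again without overlap, and differed by 0.16 ± 0.11. 1451591_a_at differed by 0.083 ± 0.11, with Efnb1 values of 0.13, 0.10 and -0.033 in p300+/- pools and -0.0097, -0.054 and 0.0097 in Wild-type pools. The 3 probe sets thus gave no common direction for Efnb1.

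Efnb2 encodes ephrin-B2, a ligand of EphB receptors and of EphA4 that is found in neurons and in arterial endothelium. Its probe set 1419639_at had -0.13, -0.28 and -0.045 in p300+/- pools and 0.20, 0.29 and 0.045 in Wild-type pools. All p300+/- pools lay below all Wild-type pools. The log2 fold change was -0.33 ± 0.12, with an unadjusted p of 0.0308 and an adjusted p of 0.9999 by limma. The other 3 Efnb2 probe sets differed by 0.22 ± 0.13 (1449549_at), -0.19 ± 0.14 (1419638_at) and 0.062 ± 0.18 (1449548_at), so 2 of the 4 were above 0 and 2 below.

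The remaining ephrins were closer to 0. Efna4, a membrane-anchored A-type ephrin with 1 probe set, had the widest spread over arrays of the family, with -0.18, -0.088 and 0.021 in p300+/- pools and 0.026, 0.59 and -0.021 in Wild-type pools. Its difference was -0.28 ± 0.18, and -0.087 without Wild-type pool 2. Efna5, which patterns topographic projections, had -0.19 ± 0.12 at 1436866_at and 0.14 ± 0.16 at 1421796_a_at. Both Efna1 probe sets were slightly above 0 (0.10 and 0.075), both Efna2 probe sets slightly below (-0.077 and -0.014), and Efna3 had 0.046 and -0.017. Efnb3, a ligand expressed by neurons and at the midline, had a single probe set at -0.055 ± 0.14. Over the 17 ephrin probe sets of 8 genes the median log2 fold change was -0.014, with 8 above 0 and 9 below.

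Class 3 semaphorins are secreted repellents. Sema3d was the only member higher in p300+/- pools at an unadjusted p under 0.05. Its probe set 1453148_at had 0.11, 0.38 and 0.094 in p300+/- pools, against -0.094, -0.14 and -0.25 in Wild-type pools. There was no overlap, and p300+/- pool 2 was the highest array. The log2 fold change was 0.35 ± 0.13, a fold of 1.28 with a 95% interval of 1.04 to 1.57, and limma gave an unadjusted p of 0.0255 and an adjusted p of 0.9999. The second Sema3d probe set, 1429459_at, differed by -0.19 ± 0.20, with values of -0.30, 0.048 and 0.042 in p300+/- pools and -0.13, 0.53 and -0.042 in Wild-type pools. The sign for Sema3d therefore differed between its probe sets.

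Of the 18 class 3 semaphorin probe sets, 12 were above 0 and 6 below, with a median of 0.097 that stayed between 0.057 and 0.10 with 1 array left out. Sema3a, the founding growth cone repellent, which binds Nrp1, had 0.13 ± 0.12, 0.074 ± 0.18 and -0.015 ± 0.20. Sema3f, which acts through Nrp2 and in the mouse limits the infrapyramidal mossy fibre bundle, had 0.22 ± 0.17, 0.11 ± 0.13 and -0.0022 ± 0.26. Neither gene differed beyond the spread between pools.

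Sema3e, which binds Plxnd1 without a neuropilin, had the most probe sets of the class, and they spread from -0.26 ± 0.17 (1442226_at) and -0.17 ± 0.16 (1419717_at) to 0.0096 ± 0.19 (1427673_a_at) and 0.30 ± 0.19 (1425906_a_at). At 1442226_at the values were -0.10, 0.10 and -0.24 in p300+/- pools and -0.13, 0.35 and 0.32 in Wild-type pools, and the genotypes overlapped.

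All 3 Sema3b probe sets were above 0, at 0.26 ± 0.27, 0.16 ± 0.15 and 0.11 ± 0.11. The largest of these, 1448415_a_at, had 0.036, -0.15 and 0.21 in p300+/- pools and -0.036, -0.86 and 0.21 in Wild-type pools. Its one far value was in Wild-type pool 2, the array in which the choroid plexus markers had a median of -2.28, and without that array the Sema3b difference was -0.055. The part of choroid plexus RNA in it was not tested. Sema3c had -0.13 ± 0.20 and 0.088 ± 0.27, and Sema3g 0.11 ± 0.12 at its single probe set.

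**Figure D2:**
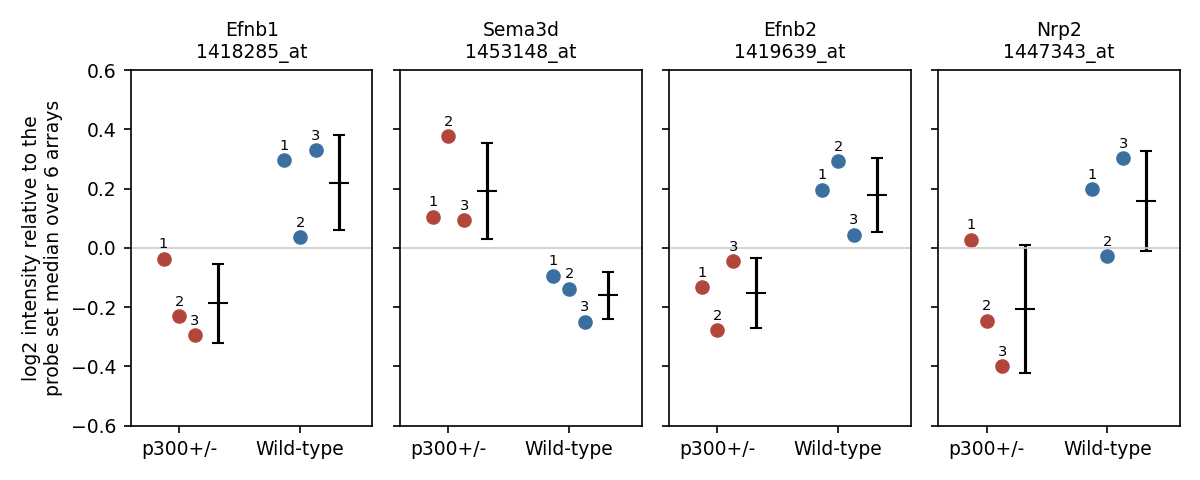
Log2 intensity relative to the probe set median (vertical axis) in each pool for the 4 guidance probe sets with an unadjusted p under 0.05, p300+/- pools left and Wild-type pools right; points are pools, numbered, and black bars are means with SD (n = 3). The genotypes do not overlap for Efnb1, Efnb2 and Sema3d and overlap for Nrp2, and no panel passes the adjusted threshold.

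Semaphorins of classes 4 to 7 are mostly bound to the membrane and bind plexins. Their 30 probe sets of 13 genes had a median log2 fold change of 0.012, with 17 above 0 and 13 below, and the median ran from -0.060 to 0.10 with 1 array left out. None had an unadjusted p under 0.05 in limma. Sema4d, a ligand of Plxnb1, had at 1420823_at 0.015, 0.13 and -0.015 in p300+/- pools and 0.13, -0.53 and -0.60 in Wild-type pools. The genotypes overlapped because Wild-type pool 1 lay among the p300+/- pools, and the difference was 0.38 ± 0.20, or 0.61 without Wild-type pool 1 and 0.24 without Wild-type pool 3. The other Sema4d probe sets differed by 0.023 ± 0.20 and 0.019 ± 0.18.

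Sema6d, a ligand of Plxna1, held the highest fold change of all members, 0.44 ± 0.27 at 1448060_at. Its values there were 0.19, 0.55 and -0.19 in p300+/- pools and 0.073, -0.78 and -0.073 in Wild-type pools. The lowest arrays were p300+/- pool 3 and Wild-type pool 2, and the other 3 Sema6d probe sets differed by 0.076, -0.041 and 0.052. The difference at 1448060_at was 0.18 without Wild-type pool 2 and 0.63 without p300+/- pool 3.

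Sema5a, which in the mouse restrains excitatory synapses of dentate granule cells, gave opposite signs: 0.43 ± 0.25 at 1422167_at and -0.35 ± 0.25 at 1437422_at. At 1422167_at the values were 0.29, 0.52 and -0.22 in p300+/- pools and 0.076, -0.69 and -0.076 in Wild-type pools. At 1437422_at, Sema5a had 0.25, -0.27 and -0.55 in p300+/- pools and 0.41, -0.25 and 0.30 in Wild-type pools. Within each probe set the genotypes overlapped, and p300+/- pool 3 was the lowest p300+/- pool in both. The difference at 1437422_at was -0.17 without p300+/- pool 3 and -0.56 without p300+/- pool 1. The other Sema5a probe sets differed by -0.16 ± 0.17 and -0.041 ± 0.15.

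Sema5b had 0.26 ± 0.15 and -0.11 ± 0.21. Sema6a and Sema6b, ligands of Plxna2 and Plxna4 in mossy fibre lamination, differed by 0.13, -0.083 and 0.026 (Sema6a) and by 0.098 (Sema6b). Sema7a, the membrane-anchored ligand of Plxnc1, had 0.15 ± 0.27 and 0.038 ± 0.21. All 3 Sema6c probe sets were below 0, between -0.096 and -0.026. The standard errors of these semaphorins were as large as the differences or larger, apart from Sema5b 1435963_at and Sema6a 1425903_at.

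The receptors begin with the neuropilins, co-receptors of the class 3 semaphorins. Nrp2 was the only receptor with an unadjusted p under 0.05. At 1447343_at it had 0.027, -0.25 and -0.40 in p300+/- pools and 0.20, -0.027 and 0.30 in Wild-type pools. The genotypes overlapped, since p300+/- pool 1 lay above Wild-type pool 2. The log2 fold change was -0.36 ± 0.15, with a 95% interval of -0.72 to -0.0041, an unadjusted p of 0.0480 and an adjusted p of 0.9999 by limma. The other Nrp2 probe sets differed by -0.38 ± 0.31, -0.20 ± 0.13 and -0.026 ± 0.17, so all 4 were below 0. Nrp1, the receptor of Sema3a, also had all 4 probe sets below 0, between -0.26 and -0.021, each within 1.5 standard errors of 0.

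Plexins carry the signal into the cell. Plxna2, a Sema6a receptor that takes part in mossy fibre lamination in the mouse, was below 0 at all 4 probe sets: -0.30 ± 0.13, -0.22 ± 0.16, -0.045 ± 0.12 and -0.023 ± 0.24. At the first of these, 1453286_at, Plxna2 had -0.012, -0.35 and -0.34 in p300+/- pools and 0.11, 0.012 and 0.066 in Wild-type pools. No overlap was seen, by a narrow margin between p300+/- pool 1 and Wild-type pool 2, and limma gave an unadjusted p of 0.0555. Plxna1 had 0.082 and 0.028, Plxna3 0.0085 and -0.0092, Plxna4 -0.19 and 0.027, Plxnb1 -0.23 and 0.021, Plxnb3 0.021 and -0.015, and Plxnd1 -0.055. Plxnb2, a receptor of class 4 semaphorins, differed by 0.11 ± 0.20 and by -0.085 without Wild-type pool 2.

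Plxnc1 had 6 probe sets, the most of any member, with log2 fold changes between -0.042 and 0.14 but very unequal spread. The range over the 6 arrays was 0.21 and 0.22 at 1423213_at and 1443433_at, against 1.83 at 1450906_at and 1.53 at 1423214_at. Of the narrow ones, 1423213_at fell in the level class from 8 to 16 and 1443433_at in the lowest class, 2 to 4. The wide ones both fell in that from 4 to 8. At 1450906_at, Plxnc1 had -0.058, 0.52 and -0.44 in p300+/- pools and 0.79, -1.04 and 0.058 in Wild-type pools. Its difference of 0.074 ± 0.45 was far smaller than the spread within either genotype. Over the 30 plexin and neuropilin probe sets the median was -0.022, with 12 above 0 and 18 below, and it ran from -0.14 to 0.034 with 1 array left out.

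Eph receptors had 28 probe sets of 13 genes, 9 above 0 and 19 below, with a median of -0.029, which ran from -0.12 to 0.018 with 1 array left out. No Eph receptor had an unadjusted p under 0.05. Epha3, a receptor of A-type ephrins, had the lowest fold change of all members, -0.48 ± 0.24 at 1425575_at. Its values there were -0.50, 0.16 and -0.21 in p300+/- pools and -0.16, 0.44 and 0.61 in Wild-type pools, and the genotypes overlapped through p300+/- pool 2. The other 3 Epha3 probe sets differed by -0.094, -0.074 and 0.073.

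Epha1 1432400_at had 0.011, 0.23 and 0.25 in p300+/- pools and -0.027, -0.011 and -0.13 in Wild-type pools. These did not overlap, with a difference of 0.22 ± 0.12, while the other Epha1 probe sets differed by 0.10 and -0.0019. Epha7, a receptor of A-type ephrins that limits dendrite growth, had -0.41 ± 0.25, -0.20 ± 0.16, -0.094 ± 0.22 and 0.14 ± 0.15. At the probe set with the lowest of these, 1451991_at, Epha7 had -0.020, 0.020 and -0.81 in p300+/- pools and 0.35, -0.17 and 0.24 in Wild-type pools, with p300+/- pool 3 far below the rest. Epha5 had differences between -0.23 and 0.032, Epha8 -0.17 ± 0.15 and Ephb1 -0.18 ± 0.13. Ephb3, Ephb4, Ephb6, Epha2, Epha6 and Epha10 all lay within 0.05 of 0.

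Epha4, which binds ephrins of both types and in the hippocampus receives ephrin-A3 from astrocytes, varied more between arrays than any other member, and not by genotype. At 1421929_at it had 0.29, 0.17 and -1.46 in p300+/- pools and 0.48, -1.74 and -0.17 in Wild-type pools. At 1456863_at, Epha4 had 0.12, 0.083 and -1.56 in p300+/- pools and 0.55, -1.66 and -0.083 in Wild-type pools. At 1439757_s_at it had 0.095, 0.15 and -1.48 in p300+/- pools and 0.43, -1.75 and -0.095 in Wild-type pools. In each of these probe sets p300+/- pool 3 and Wild-type pool 2 were the 2 low arrays. 1421928_at showed the same arrays low at a smaller size, with -0.80 in p300+/- pool 3 and -0.94 in Wild-type pool 2.

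The fifth Epha4 probe set did not show it: 1429021_at had -0.099, 0.20 and -0.052 in p300+/- pools and 0.023, -0.023 and 0.14 in Wild-type pools, a range of 0.30 beside 2.22 at 1421929_at. With 1 low array in each genotype, the difference at 1421929_at was 0.14 ± 0.64. It was -0.49 without Wild-type pool 2 and 0.71 without p300+/- pool 3, so its sign at that probe set rested on single arrays.

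**Figure D3:**
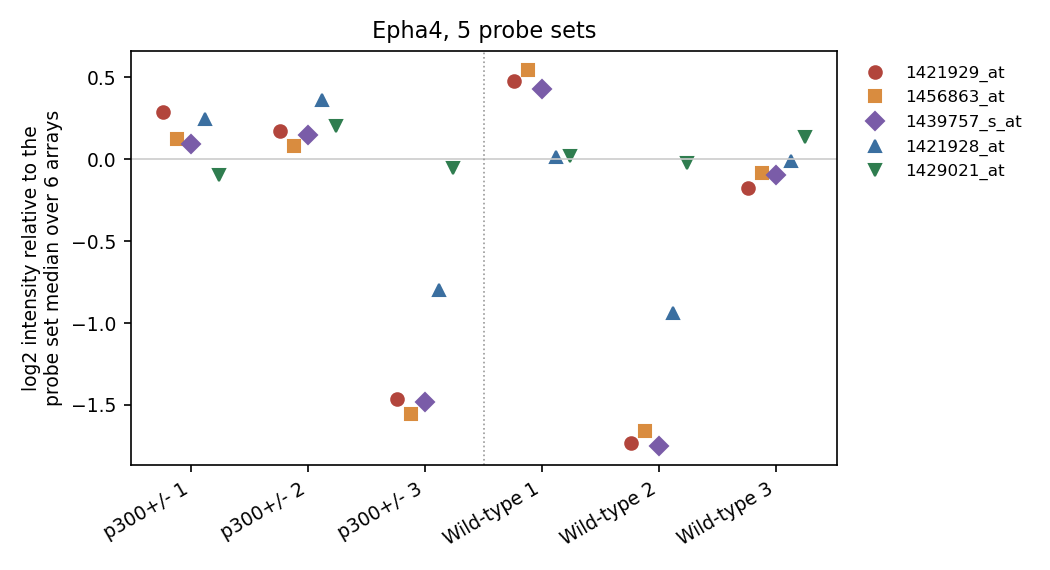
Log2 intensity relative to the probe set median (vertical axis) of the 5 Epha4 probe sets in each array, p300+/- pools left of the dotted line and Wild-type pools right; each symbol is 1 probe set. In p300+/- pool 3 and Wild-type pool 2 the values of 4 probe sets lie between -1.75 and -0.80, while 1429021_at spans 0.30 over the 6 arrays.

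The Slits and Robos were represented by 6 and 7 probe sets. Slit1, Slit2 and Slit3 are secreted repellents. Slit2 had -0.24 ± 0.17, -0.21 ± 0.17 and 0.047 ± 0.12. At 1458140_at, Slit2 had -0.090, -0.067 and 0.067 in p300+/- pools and 0.15, -0.075 and 0.55 in Wild-type pools, with overlap, and its difference was -0.066 without Wild-type pool 3 and -0.38 without Wild-type pool 2. Slit1 had 0.080 ± 0.16 and 0.0018 ± 0.26, and at the second of these, 1425277_at, the values were 0.16, -0.16 and -0.19 in p300+/- pools and 0.21, -0.67 and 0.27 in Wild-type pools. Slit3 had 0.0013 ± 0.24.

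Robo1 and Robo2 are the neuronal Slit receptors. Robo2 had -0.33 ± 0.21 at its single probe set, from 0.17, -0.22 and -0.31 in p300+/- pools and 0.51, -0.17 and 0.28 in Wild-type pools, with overlap. Without Wild-type pool 1 the Robo2 difference was -0.18, and without Wild-type pool 2 it was -0.52. All 3 Robo1 probe sets were below 0, at -0.29 ± 0.20, -0.14 ± 0.14 and -0.0054 ± 0.17. At 1427231_at, Robo1 had -0.47, 0.21 and -0.17 in p300+/- pools and 0.0021, -0.0021 and 0.43 in Wild-type pools, again overlapping, and its difference was -0.13 without p300+/- pool 1 and -0.46 without p300+/- pool 2. Robo3, which is known from commissural axons, had 0.10 and 0.020, and Robo4, an endothelial receptor, had 0.12 ± 0.16. The medians were 0.0016 for the Slits and -0.0054 for the Robos.

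Netrins and netrin-Gs had 12 probe sets, 3 above 0 and 9 below, with a median of -0.049. Ntng1 encodes netrin-G1, a membrane-anchored ligand of Lrrc4c at excitatory synapses, and all 4 of its probe sets were below 0. At 1449286_at, Ntng1 had -0.0097, -0.076 and -0.16 in p300+/- pools and 0.29, 0.0097 and 0.14 in Wild-type pools. The genotypes did not overlap, and the difference was -0.23 ± 0.12 with an unadjusted p of 0.0993 by limma. At 1441634_at, Ntng1 had 0.48, -0.65 and -0.075 in p300+/- pools and 1.06, -0.34 and 0.075 in Wild-type pools, a difference of -0.35 ± 0.40 with wide overlap. The other 2 differed by -0.061 and -0.040.

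Ntng2, its paralogue, had -0.25 ± 0.21 and 0.051 ± 0.14. Ntn1, the chemoattractant of commissural axons, had 0.078 ± 0.11 and -0.15 ± 0.21. Ntn3 had 0.16 ± 0.19, with 0.090, -0.18 and 0.079 in p300+/- pools and -0.079, -0.54 and 0.13 in Wild-type pools, and -0.027 without Wild-type pool 2. Ntn4, a netrin of basement membranes, and Ntn5 lay between -0.057 and -0.010.

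Dcc and the Unc5 receptors had the lowest family median, -0.13 over 9 probe sets, 3 above 0 and 6 below. All 3 probe sets of Dcc, the attractive netrin receptor, were below 0. At 1440487_at, Dcc had -0.084, -0.13 and -0.0082 in p300+/- pools and 0.0082, 0.13 and 0.085 in Wild-type pools, without overlap, and differed by -0.15 ± 0.11. At 1441572_at it had -0.031, 0.031 and -0.95 in p300+/- pools and 0.16, -0.34 and 0.37 in Wild-type pools. The difference there was -0.38 ± 0.30, and -0.066 without p300+/- pool 3. The third Dcc probe set differed by -0.010 ± 0.13.

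Among the repulsive netrin receptors, Unc5d had -0.23 ± 0.15, with -0.097, 0.050 and -0.051 in p300+/- pools and 0.23, 0.42 and -0.050 in Wild-type pools. The Unc5d difference was -0.12 without Wild-type pool 2 and -0.36 without Wild-type pool 3. Unc5b had 0.079 ± 0.11 and -0.16 ± 0.27, Unc5c -0.13 ± 0.12 and 0.12 ± 0.20, and Unc5a 0.056 ± 0.35. Unc5a was another gene with a far array, at -1.01 in Wild-type pool 2. None of these passed an unadjusted p of 0.05 in limma.

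Of the 73 genes, 48 had more than 1 probe set. In 19 of these all probe sets had the same sign of difference, above 0 in 9 genes and below 0 in 10, and in 29 the signs were mixed. Nrp1, Nrp2, Plxna2 and Ntng1 had 4 probe sets each, all below 0. The other genes with 4 probe sets, Efnb2, Epha3, Epha5, Epha7, Sema3e, Sema5a and Sema6d, all had mixed signs. The share of genes with 1 sign was not taken over the whole array. Probe sets of a gene share the same RNA and are not replicates of it.

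Read array by array, p300+/- pool 3 and Wild-type pool 2 were the 2 lowest arrays for 47 of the 162 probe sets (29.0%), against 15.8% of all probe sets. Each of the other 14 pairs of arrays was the lowest for 2 to 15 members. This pair was lowest in 15 of 30 plexin and neuropilin probe sets, 13 of 30 for the class 4 to 7 semaphorins, 8 of 28 for the Eph receptors, 4 of 9 for Dcc and the Unc5 receptors and 3 of 6 for the Slits. It was lowest in 1 of 17 for the ephrins, 1 of 18 for the class 3 semaphorins, 1 of 7 for the Robos and 1 of 12 for the netrins. Membrane receptors and membrane-bound semaphorins thus held most of these probe sets.

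The family medians show the same arrays. Plexins and neuropilins had medians of 0.029, -0.012 and -0.25 in p300+/- pools and 0.083, -0.15 and 0.062 in Wild-type pools. Class 4 to 7 semaphorins had 0.068, 0.012 and -0.13 in p300+/- pools and 0.052, -0.23 and 0.057 in Wild-type pools. Both families were low in the arrays where the medians of the hippocampal neuron markers were low as well, -0.45 in p300+/- pool 3 and -0.32 in Wild-type pool 2. The part of neuronal content in this was not tested. In p300+/- pool 3 and Wild-type pool 2, other marker medians were 0.071 and 0.00061 (cortex and striatum), and 0.012 and 0.020 (thalamus). They were 0.0070 and -0.074 for vascular and meningeal markers, and 0.026 and -0.13 for oligodendrocyte and myelin markers. Some probe sets of the vascular genes Rgs5 and Flt1 were low in both arrays and others were not. Low values there were thus not limited to neuron markers. The ephrins, with 0.054 in p300+/- pool 3 and -0.013 in Wild-type pool 2, and the class 3 semaphorins, with 0.058 and 0.024 in those arrays, were not low there.

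**Figure D4:**
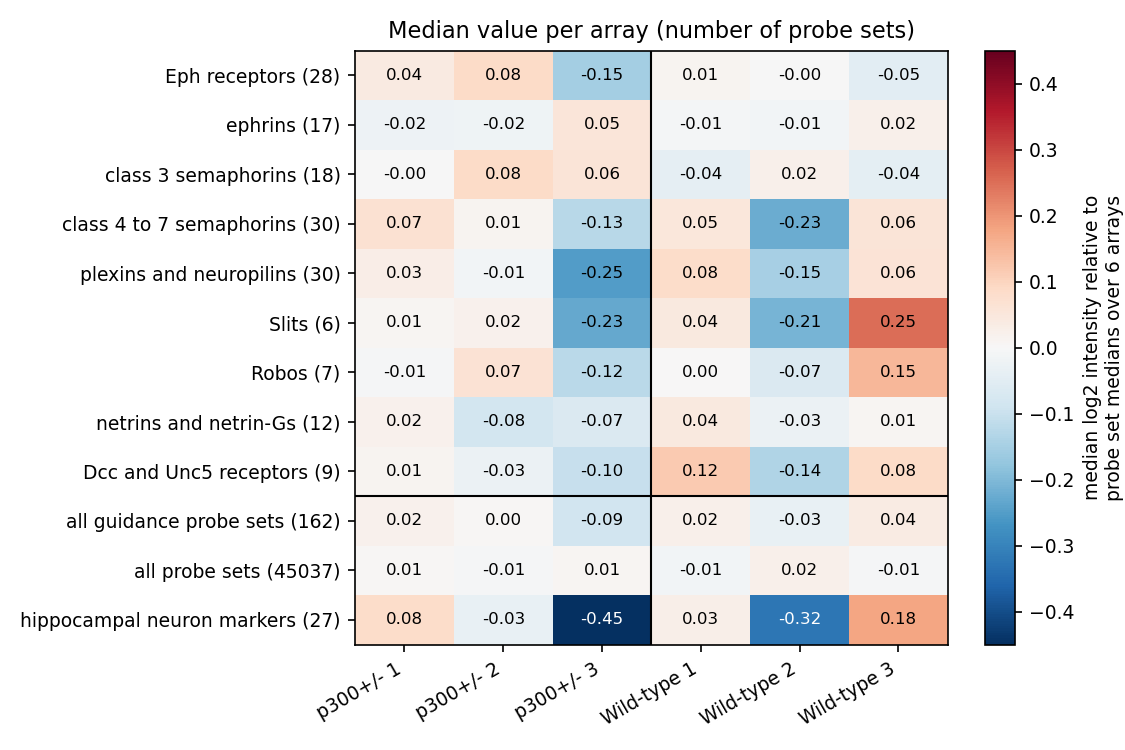
Median log2 intensity relative to the probe set median (colour and printed value) over the probe sets of each family (rows, number of probe sets in brackets) in each array (columns), p300+/- pools left of the line and Wild-type pools right, with all guidance probe sets, all probe sets and hippocampal neuron markers below. The low cells gather in p300+/- pool 3 and Wild-type pool 2, where the neuron markers reach -0.45 and -0.32.

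Spread over arrays was wider among the members than over the table. The median range over the 6 arrays was 0.58, beside 0.48 over all probe sets, and 24 members (14.8%) had a range above 1, beside 9.49% of all. In 18 of these 24 (75.0%) p300+/- pool 3 and Wild-type pool 2 were the 2 lowest arrays, a share of 49.6% among the 4272 probe sets of the table with such a range. The 18 included Epha4, Plxnc1, Plxna4, Plxna1, Nrp2, Sema6d, Sema5a, Unc5a and Dcc. Several of the 24 were probe sets of the same gene, as for Epha4 and Plxnc1. Members also differed from the table in level: 9 of the 162 fell in the lowest level class, 2 to 4, against 17.7% of all probe sets. Ranges were not matched on level, so the wider spread is not shown to be particular to guidance genes.

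Without these 2 arrays, limma on 2 pools per genotype still called 0 members, and 9 members had an unadjusted p under 0.05. The share of all probe sets under 0.05 was not taken in that fit, so the 9 cannot be set against it. The values of the 4 leading probe sets were as large or nearly so: -0.45 for Efnb1 1418285_at, -0.33 for Efnb2 1419639_at, 0.41 for Sema3d 1453148_at and -0.36 for Nrp2 1447343_at. These 4 were picked by their p over all arrays, and the 2 arrays by their values in the same data. Except for Nrp2 their genotypes did not overlap, so their sign could not turn. The values describe these probe sets and are no separate check of them. Slit2 1458140_at was at -0.42 without both arrays, against -0.24 with all arrays and -0.066 without Wild-type pool 3 alone.

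The promoters of 3 genes are shown because Efnb1 and Sema3d held the smallest unadjusted p-values below and above 0 and Epha4 the widest spread between arrays. p300 and its paralogue CBP are coactivators of CREB, which binds the cyclic AMP response element, so the element's core TGACG was searched on both strands, as was the GC box GGGCGG, bound by Sp-family factors. Sequences run 5′ to 3′ on the gene's strand, from 250 bases before to 50 after the start of transcription in RefSeq (GRCm38.p6), and capitals mark either motif in either orientation. They lie at chrX:99135811-99136110 (plus strand) for Efnb1, chr5:12382916-12383215 (plus strand) for Sema3d and chr1:77515039-77515338 (minus strand) for Epha4.
Efnb1: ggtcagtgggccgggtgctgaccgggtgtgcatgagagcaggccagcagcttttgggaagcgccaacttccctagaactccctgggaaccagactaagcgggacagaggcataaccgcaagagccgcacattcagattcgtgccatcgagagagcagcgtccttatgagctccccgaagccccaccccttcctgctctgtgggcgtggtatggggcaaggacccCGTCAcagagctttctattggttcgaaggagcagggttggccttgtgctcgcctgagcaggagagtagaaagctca
Sema3d: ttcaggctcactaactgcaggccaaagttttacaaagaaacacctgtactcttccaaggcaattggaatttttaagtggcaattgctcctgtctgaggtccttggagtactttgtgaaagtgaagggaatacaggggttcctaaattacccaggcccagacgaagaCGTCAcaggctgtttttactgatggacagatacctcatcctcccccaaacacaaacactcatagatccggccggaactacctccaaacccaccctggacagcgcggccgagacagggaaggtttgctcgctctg
Epha4: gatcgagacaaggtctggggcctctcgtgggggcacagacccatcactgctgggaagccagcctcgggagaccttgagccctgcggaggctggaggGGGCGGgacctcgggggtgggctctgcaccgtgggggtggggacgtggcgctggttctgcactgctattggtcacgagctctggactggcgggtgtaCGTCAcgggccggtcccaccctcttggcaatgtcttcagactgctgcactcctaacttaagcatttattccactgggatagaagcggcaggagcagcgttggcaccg
Each held 1 TGACG core, and Epha4 also held 1 GC box. Their GC content was 59.7% for Efnb1, 49.7% for Sema3d and 64.0% for Epha4.

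RefSeq gave 76 promoters for 60 of the member genes. TGACG was in 10 of the 76 (13.2%), against 23.6% of the 21262 protein-coding promoters of the same length. The full element TGACGTCA, which contains the core, was in 1 (1.32%), that of Epha2, against 2.23%. GGGCGG was in 54 (71.1%), against 46.2%, and the members' median GC content was 64.0%, against 56.3%. Guidance promoters were thus richer in GC than promoters at large, and these matches describe letters and not bound sites.

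Genes that carry the guidance signal inside the cell were read in a list of 54 effectors, 50 of them measured by 139 probe sets. limma called 0 of the 139, and 0 had an unadjusted p under 0.05. Their median log2 fold change was -0.033, with 61 above 0 and 78 below. The smallest p-values were those of Vasp, an actin regulator of growth cones, with 0.28 ± 0.13, of Vav2, which acts downstream of Eph receptors, with -0.25 ± 0.12, and of Rac1 with 0.36 ± 0.19. Pools of the genotypes did not overlap for Vasp and Vav2 and overlapped for Rac1. Over the 139 probe sets, p300+/- pools lay wholly above Wild-type pools for 4 (3.19% of all probe sets did) and wholly below for 1 (2.2% did). Other Vav2 probe sets differed by -0.055 and 0.051 and other Rac1 probe sets by 0.098 and -0.047.

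A list of 24 other guidance receptors and ligands was measured whole, by 70 probe sets. limma called 0 of the 70, and the median was -0.059 with 24 above 0 and 46 below, or -0.14 to 0.00018 with 1 array left out. At an unadjusted p under 0.05 limma had 2 lower in p300+/- pools, where 0.451% of all probe sets were, and 0 higher, where 0.77% were. The p300+/- pools lay wholly below the Wild-type pools for 3 of the 70 (2.2% of all probe sets did) and wholly above for 1 (3.19% did). Rtn4, which encodes the myelin growth inhibitor Nogo, had -0.053, -0.13 and -0.23 in p300+/- pools and 0.31, 0.053 and 0.53 in Wild-type pools at 1435284_at. Without overlap between genotypes, the difference was -0.44 ± 0.15 with an unadjusted p of 0.0201 and an adjusted p of 0.9999 by limma. The other Rtn4 probe sets differed by 0.21, -0.37, -0.044 and -0.12. Rtn4 1437224_at had the Epha4-like pattern, with -1.47 in p300+/- pool 3 and -1.50 in Wild-type pool 2.

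Flrt2, a ligand of Unc5 receptors, had -0.093, -0.078 and -0.10 in p300+/- pools and 0.32, 0.078 and 0.19 in Wild-type pools at 1438702_at. The genotypes did not overlap, and the difference was -0.29 ± 0.11 with an unadjusted p of 0.0375 and an adjusted p of 0.9999 by limma. The other 2 Flrt2 probe sets differed by -0.17 and 0.0010. Neo1, neogenin, a receptor of netrins and repulsive guidance molecules related to Dcc, had its lowest difference at 1440789_at, -0.48 ± 0.23. Its values there were 0.13, -0.61 and -0.68 in p300+/- pools and 0.26, -0.091 and 0.091 in Wild-type pools, with overlap through p300+/- pool 1. All 5 Neo1 probe sets were below 0, the others at -0.34, -0.19, -0.19 and -0.084.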

How the data were processed

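The deposited table holds log2 values of 45101 probe sets on 6 arrays. Per the labels' protocols, RNA was extracted from each hippocampus, pooled in equal amounts from 4 animals, hybridized to Mouse Genome 430 2.0 arrays, and processed and normalized in GeneSpring GX. The labels give neither its version nor how probes were summarized and arrays normalized. The deposited log2 values are centred on each probe set's median over the 6 arrays (within 1e-06). No source states the base of the logarithm, which was taken as 2 from the binary grids of the values, on which fold changes depend. The same grids gave a coarse level class: 55 members fell in that from 8 to 16, 95 in that from 4 to 8, 9 in that from 2 to 4, and 3 were not assigned. The 9 of the lowest class were Efna5 1421796_a_at, Sema3a 1420417_at, Sema5a 1459109_at, Plxnc1 1443434_s_at and 1443433_at, Robo3 1421565_at, Ntng2 1450820_a_at, Plxna4os1 and Unc5cl.

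After 64 control probe sets were left out, limma 3.58.1 in R 4.3.3 (lmFit, eBayes) was fitted to 45037 probe sets, without covariates, two-sided, with Benjamini-Hochberg adjustment over all of them and a threshold of 0.05. The fit was run on simulated data with planted changes and independent noise. Such data lack the deviations that arrays shared here, so the run checks the code and not how well the fit suits these arrays. The number of arrays limits the precision. Genes were named from the platform annotation, and all 162 members matched RefSeq (GRCm38.p6) by gene identifier.

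The text names members past the threshold, at an unadjusted p under 0.05, with the smallest p in each direction or the widest range in each family, and the gene with the most probe sets per family. Of the lists outside the families it names the 3 smallest p-values each. Members whose genotypes did not overlap were added after their values were seen, and the other members are given as a description. Members and lists were chosen with earlier results of these data known. Alternatives were quantile normalization, median centring of arrays, array weights, robust moderation, a replicate block, filters on probe set type and level class, a threshold of 0.1, gene means, updated symbols, and omission of arrays. Leaving out the symbols matched by letters only was chosen after seeing the data. Figures were drawn with matplotlib 3.10.9.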

Additional observations from a re-analysis of the deposited data

How the results depend on the processing

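No alternative gave a member an adjusted p under the threshold, and the smallest adjusted p of a named probe set in any of them was 0.9738 by limma. Of 879 recomputed values of 62 results, 827 were counted as the same, 28 as moved and 24 as turned in sign. A count was the same within 1.5 times, and a median where it shifted by less than the spread of array medians within genotypes. A single probe set was the same where it kept its sign and its side of the threshold. Sign was followed for single probe sets only, so a median that crossed 0 could count as the same. The number of members with an unadjusted p under 0.05, 4 with all arrays, was 10 with array weights (0.58 for p300+/- pool 3 and 0.379 for Wild-type pool 2), 9 without both of these arrays, and 1 (without p300+/- pool 2) to 8 (without Wild-type pool 2), with 7 without p300+/- pool 1, when each array was left out in turn. Members whose genotypes did not overlap numbered 8 with all arrays, 46 without both arrays and 19 to 32 with 1 array left out, since fewer arrays overlap less often by construction. In these alternatives neither count was taken over all probe sets. A rise in either is therefore not shown to be particular to the members.

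With gene means the ephrin median was -0.0498, and without both arrays it was -0.098. With 1 array left out the medians ran from -0.0591 to 0.0643 for the ephrins, -0.254 (without Wild-type pool 2) to 0.0663 for the Slits, -0.133 to 0.0017 for the Robos, -0.0888 to 0.0167 for the netrins, -0.139 to 0.00793 for Dcc and the Unc5 receptors, -0.116 to 0.0175 for the Eph receptors, -0.0596 to 0.0999 for the class 4 to 7 semaphorins, -0.136 to 0.0335 for the plexins and neuropilins, -0.072 to 0.0222 for the effectors and -0.143 to 0.000182 for the other guidance receptors and ligands. The class 3 semaphorin median alone among the 9 families stayed on one side of 0, between 0.0566 and 0.1. The median over all probe sets, 0.0057 with all arrays, was not followed in this way. Within the class, Sema3a, Sema3c, Sema3d, Sema3e and Sema3f had probe sets of both signs, so no rise of the whole class is shown.

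Single probe sets that turned sign were all uncalled, and the cause was not tested. With array weights Epha4 1421929_at was -0.246, Slit1 1425277_at -0.173 and Plxnc1 1450906_at -0.392. The largest weight, 3.17, was that of Wild-type pool 1, so these values lean on that array within the Wild-type group. With quantile normalization Slit1 1425277_at was -0.102 and Plxnc1 1450906_at -0.022. Without both arrays Plxnb2 was -0.015, Ntn3 -0.068, Slit1 1425277_at -0.238, Sema3b 1448415_a_at -0.142 and Plxnc1 1450906_at -0.191. With 1 array left out the ranges were -0.085 to 0.206 for Plxnb2, -0.486 to 0.708 for Epha4 1421929_at, -0.027 to 0.306 for Ntn3, -0.301 to 0.17 for Slit1 1425277_at, -0.040 to 0.202 for Slit1 1440056_at, -0.649 to 0.051 for Ntng1 1441634_at, -0.055 to 0.482 for Sema3b 1448415_a_at and -0.415 to 0.501 for Plxnc1 1450906_at. Efnb1 1418285_at (-0.499 to -0.353), Efnb2 1419639_at (-0.397 to -0.268), Sema3d 1453148_at (0.26 to 0.402), Nrp2 1447343_at (-0.48 to -0.267) and Ep300 (-0.715 to -0.572) kept their sign. So did others that moved by over 1.5 times: Sema3e 1442226_at (-0.415 to -0.176), Efnb2 1449549_at (0.147 to 0.323), Robo4 (0.0377 to 0.273), Unc5b 1435110_at (0.0432 to 0.132), Dcc 1441572_at (-0.587 to -0.0664), Rac1 1423734_at (0.191 to 0.509) and Neo1 1440789_at (-0.734 to -0.329). For Efnb1 1418285_at, Efnb2 1419639_at, Sema3d 1453148_at and Ep300 the sign could not turn, since their genotypes did not overlap. The leading members were also picked by their p in these same arrays, so a kept sign is no separate support.

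Replicate numbers did not pair the pools throughout: deviations of same-numbered pools 1, 2 and 3 had correlations of 0.609, -0.23 and -0.468. The largest correlation across genotypes was 0.648, between p300+/- pool 3 and Wild-type pool 2, and p300+/- pool 2 and Wild-type pool 3 had 0.369. With the replicate number as a block limma called 0 probe sets, and 3 members had an unadjusted p under 0.05, a count not taken over all probe sets. The planned trend in the variance needs absolute levels and was not run. Array values are centred, so no signal over background can be given. With 3 pools of 4 animals per genotype, differences between single animals were not measured.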
